A study of Saccharomyces cerevisiae with 4 samples.

Results

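Transcripts of yeast cells in the middle of spore formation were compared with those of cells growing on acetate, gene by gene, on 1 of the 4 arrays of the series. The sample, labelled with Cy5, was total RNA of strain GF18 after 5.5 h in sporulation medium (SPM, potassium acetate with a trace of raffinose), a diploid of the fast-sporulating SK1 background in which the promoter of SPS4 drives a 3HA-tagged NDT80. The reference, labelled with Cy3, was total RNA of NKY1551, a wild-type SK1 diploid grown in YPA, a rich medium with acetate as the carbon source. Each group was 1 RNA sample of 1 strain. The NDT80 promoter was replaced in 1 haploid parent, and whether both copies in GF18 carry the change is not given in the sources used here. Strain, medium and stage therefore differed together and cannot be told apart. The other 3 arrays carried GF18 cells moved from SPM to glucose medium (YPD) for 0, 20 and 40 min, against the same reference RNA. The labels give the time in SPM as 5.5 h in the title and as a whole number of hours in the source name. All 6218 yeast open reading frames on the array were members of the comparison, of which 5663 have an entry in the RefSeq annotation of assembly R64 and 555 do not.

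Budding yeast diploids enter meiosis when nitrogen and fermentable carbon are both lacking. Ime1 starts the program by switching on the early genes of recombination and chromosome pairing, among them the kinase gene IME2. The transcription factor Ndt80 then switches on the middle genes, which drive the meiotic divisions, build the prospore membrane around each nucleus and lay down the spore wall, while Sum1 with the deacetylase Hst1 and their partner Rfm1 holds the same genes silent outside this stage. Acetate-grown cells respire and make their sugars by gluconeogenesis, without glucose repression.

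A log2 ratio here is the normalized Cy5 intensity over the normalized Cy3 intensity, the mean of 2 adjacent spots of 1 gene, and its SD covers only the noise between those spots. A gene was called higher or lower when each of its spots passed 2-fold, on the same side, and the brighter channel lay above background, which was the 95th percentile of 236 buffer spots in that channel. A channel counted as above background when at least 1 of its 2 spots was. At this background 3012 genes (48.4%) were measured in both channels, 369 (5.93%) in the SPM channel alone, 1684 (27.1%) in the reference channel alone and 1153 (18.5%) in neither. Where only 1 channel was above background the fold is a lower bound, and where neither was, no fold is given. Of the 3012 genes measured in both channels 303 had a spot at or below background in a channel, among them 101 of the higher and 44 of the lower calls, and their folds rest in part on that spot. Of the called genes given a ratio below, these were CAF4, ECM8, ELO3, EXO1, GIP1, PRP9, RPL2B, SIT1, SNF2, SPO11, SPT15, TIM44, VAM7 and YDL186W. The 2 spots of a gene had a median SD of 0.126 on the log2 scale and correlated at r = 0.980 across genes, which are not replicates. The p-value of a group difference cannot be had from 1 array. A call says that both spots passed 2-fold, not that cultures differ by more than their own spread. It does not set the ratio against the noise between spots, which was wide for some called genes.

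Genes printed in the sixteenth row of the 48 print blocks need separate reading. In that row the ratios of genes printed side by side differed by a median of 0.38 on the log2 scale and correlated at r = 0.66, whereas in rows 1 to 15 the median difference was 1.10 to 1.46 and r was 0.00 to 0.37. Only 4.17% of the 384 genes of the row, all from chromosome XVI, were below background in both channels, against 15.1% to 24.5% in the other 15 rows. An entire row of 8 genes in 1 block, among them GLN1 (2.18) and TIF5 (2.05), lay between 2.05 and 2.68. The cause was not tested. Genes of this row are named as such below, and the counts are given again without it where they change by 1.5 times or more.

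Across the array 1244 genes (20.0%) were higher in SPM cells and 1121 (18.0%) were lower. The list counts below are to be read against these shares of all genes. The higher calls reached further. Among genes measured in both channels, 63 reached 16-fold upward and 3 downward, and 433 reached 4-fold upward and 169 downward. Genes seen in 1 channel only made up 365 of the higher and 648 of the lower calls. Their bound passed 2-fold for 360 of these higher and 314 of these lower calls. Without the sixteenth printed row 1148 genes (19.7% of 5834) were higher and 1075 (18.4%) lower. At the edge of the rule, CHK1 (1.03) lay just inside the higher calls and SIR1 (spots at 3.63 and 0.62) just outside. On the other side, ORA1 (-1.01) lay just inside the lower calls and HXT1 (spots at -2.19 and -0.55) just outside.

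**Figure D1:**
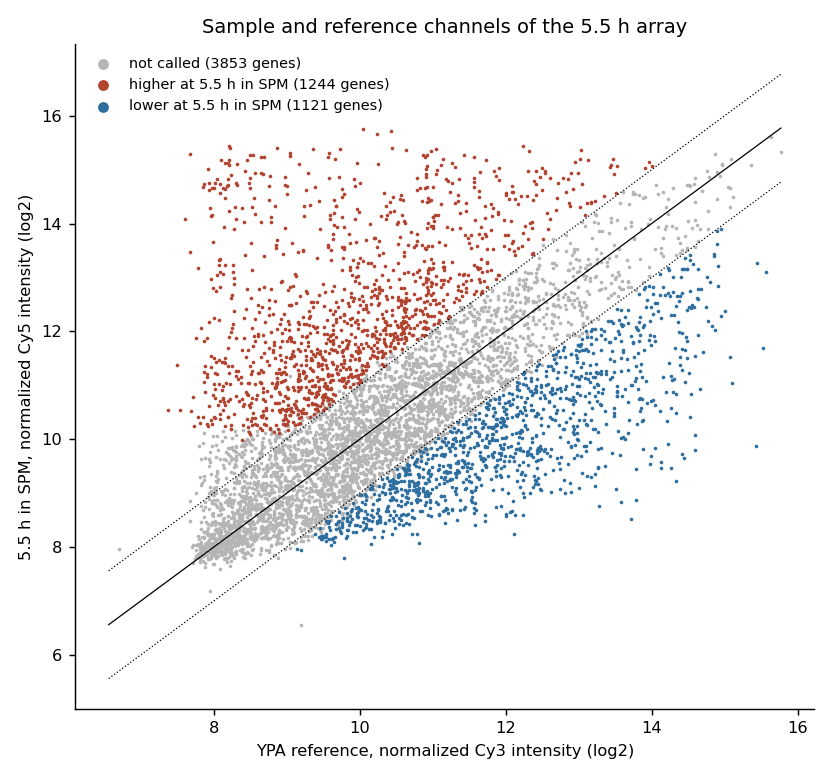
Each point is 1 of 6218 genes, with the normalized log2 intensity of the SPM 5.5 h channel on the vertical axis and that of the YPA reference channel on the horizontal axis. The solid line marks equal intensity and the dotted lines 2-fold. The 1244 higher genes reach further from the line than the 1121 lower genes, and many of the higher genes lie at the dim end of the reference axis.

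The sample was checked against 10 markers of sporulating cells, and 9 were called higher. SSP2, SPS4, SPS1 and SPR3, middle genes, were at least 75.6-fold, 69.8-fold, 68.8-fold and 64.9-fold higher. The axis and synapsis genes HOP1 and ZIP1 were at least 12.6-fold and 6.57-fold higher, and DIT1, a mid-late gene of the dityrosine layer of the spore wall, was at least 5.04-fold higher. SPO11, the nuclease of meiotic double-strand breaks, was 3.88-fold higher. REC8, the cohesin subunit particular to meiosis, was the exception. Its net intensity (spot minus local background, in scanner units that are not set against each other between channels) was 10806 and 10375 in SPM cells and 26436 and 24626 in the reference, a log2 ratio of -0.93 ± 0.03. REC8 lies in the sixteenth printed row, where the 4 genes beside it had ratios of -0.74 to -1.04, so its own level cannot be told apart from theirs. Because RNA came from whole cultures, fewer cells of a type and less RNA per cell cannot be told apart in any ratio below.

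Ranking only genes with both channels above background leaves out those below background in the reference, such as SPS4 and SSP2. Among the genes ranked, the largest ratios belonged to genes of spore formation and to genes of other functions. GIP1, which directs the phosphatase Glc7 to the prospore membrane, had net intensities of 45170 and 40644 in SPM cells and 968 and 1111 in the reference, and was 65.0-fold higher. CTS2, a putative chitinase gene, was 53.1-fold higher with spots at 5.71 and 5.75. TRS120, a subunit of the TRAPP complex of vesicle tethering, was among the brightest SPM spots at 52921 and 52692 and was 52.7-fold higher. Also in this group were ADY3 of the leading edge of the prospore membrane (46.5-fold), CUZ1 (40.8-fold), CRR1 of the spore wall (39.5-fold), ISC10 (38.5-fold) and the little-studied YDL186W, ECM8, MLO50 and YDL114W (61.3-fold, 50.5-fold, 50.4-fold and 35.9-fold). The RNA-binding protein gene MIP6 and the hexose transporter gene HXT10 ranked here as well, but their reference spots disagreed and 1 of each lay below background (1169 and -249 for MIP6, 2179 and 604 for HXT10), so no fold is given for either. SPO19 (42.7-fold) and YPR078C (39.0-fold) completed the 15, and both lie in the sixteenth printed row. The neighbours of SPO19 there, TCO89, COX11 and CBC2, had log2 ratios of 4.15, 4.36 and 4.74.

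Among the regulators of meiosis, the genes that promote the middle stage were high while the first gene of the cascade was not above its level in the reference. NDT80 had net intensities of 32087 and 30351 in SPM cells and 473 and 423 in the reference, below background there, and was at least 50.8-fold higher. The probe does not tell the SPS4-driven copy from any other. IME2, with 19711 and 24098 in SPM cells against 657 and 644, was at least 35.4-fold higher. IME1 was bright on both sides, at 27634 and 24170 in SPM cells and 42008 and 41774 in the reference, and its ratio of -0.41 ± 0.13 was not called. HST1 and RFM1, the partners of Sum1, were 12.3-fold and 10.8-fold higher, whereas SUM1 itself had a ratio of -0.55 ± 0.04. UME6, which recruits repressors to early genes and is turned into an activator with Ime1, was 2.50-fold higher (a log2 ratio of 0.69 with loess within print blocks), and the kinase gene MCK1 2.20-fold. IME4, the RNA methyltransferase gene, had spots at 0.88 and 1.17 and was not called. RIM4 (0.24), RIM11 (0.15) and RIM101 (-0.28) stayed close to 0, and neither channel was above background for RME1 or RIM15. In all 7 of the 15 regulators were higher and 0 lower.

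Genes of recombination and of the synaptonemal complex, which act before the divisions, were mostly higher, at 22 of 33 with 0 lower and a list median of 2.50 (1.96 when genes seen in 1 channel are set to their bound), against an all-gene median of -0.09. MEK1, the kinase that steers repair to the homolog, was at least 21.8-fold higher, ECM11 of the central element at least 12.4-fold and SPO16 at least 6.52-fold. DMC1, the meiotic strand-exchange protein, was 16.4-fold higher, with 12132 and 14521 in SPM cells and 1160 and 1226 in the reference. The mitotic DNA repair list was closer to the background, with 8 of 52 higher and 2 lower and a median of 0.14. Within it the nuclease gene EXO1, which also resects meiotic breaks, was 20.1-fold higher, REV7 of translesion synthesis at least 13.2-fold and the excision repair gene RAD7 9.48-fold, while PHR1, the photolyase, was at least 3.26-fold lower. Of 55 DNA replication genes 12 were higher (21.8%, near the 20.0% of all genes) and 6 lower (10.9%). PSF3 of the GINS complex was at least 12.3-fold and CSM3 of the fork protection complex 4.65-fold higher, and the kinase gene CDC7 was 3.82-fold higher. The ribonucleotide reductase genes RNR2 and RNR4 were 2.86-fold and at least 5.08-fold lower.

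The machinery of the meiotic divisions was mostly higher. Of 37 genes of the anaphase-promoting complex (APC, the ubiquitin ligase that drives exit from each division), its regulators and the division kinases, 29 were higher and 0 lower, with a median of 3.81. Of the 13 APC subunits on the array 12 were higher (median 3.88), and CDC26 was at least 54.9-fold higher. Its activators were all higher. The meiosis-specific AMA1 was at least 48.3-fold higher, CDC20 27.8-fold (23063 and 22681 in SPM cells and 1202 and 1281 in the reference) and CDH1 8.10-fold. The B-type cyclin genes CLB1 and CLB6 were 35.7-fold and at least 16.2-fold higher. G1 cyclins and Start genes did not share this, with 1 of 18 higher and 4 lower. CLN3, the first G1 cyclin, was at least 3.62-fold lower, with 651 and 563 in SPM cells and 5599 and 6205 in the reference, and the Cdk inhibitor gene SIC1 was at least 3.39-fold lower. The 1 higher gene, SWI4, the DNA-binding subunit of SBF, was 3.58-fold higher, but had a log2 ratio of 0.73 and no call with loess within print blocks.

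Spindle and kinetochore genes were higher in part. Of 34 genes of the spindle and spindle pole body 20 were higher and 0 lower (median 1.86). MPC54 and SPO21, parts of the meiotic outer plaque that seeds the prospore membrane, were 27.2-fold and at least 31.7-fold higher. KAR1 of the spindle pole body was at least 17.8-fold higher. BBP1, at least 11.4-fold higher, lies in the sixteenth printed row. TUB1, TUB2 and TUB3, the tubulin genes on the array other than that of gamma-tubulin, were 3.22-fold, 3.89-fold and 3.01-fold higher (chosen after their values were seen). Of 40 kinetochore genes 13 were higher and 0 lower (median 0.54). MPS1, the checkpoint kinase, had a log2 ratio of 3.91. NDC80 was 11.6-fold higher, the centromeric histone gene CSE4 at least 5.43-fold and SPC25 at least 5.33-fold. Cohesin and condensin genes showed 1 higher and 1 lower of 15 with a median of -0.40. YCG1, a condensin subunit, was higher at a log2 ratio of 3.91 (23441 and 21617 in SPM cells and 2339 and 1957 in the reference), while SMC2, of the same complex, was at least 1.32-fold lower and no other condensin gene was called. Among 10 histone genes HTZ1 (the variant H2A.Z) was 10.4-fold and HHF2 2.42-fold higher. The third higher histone gene was the linker histone gene HHO1 (3.48), in the sixteenth printed row beside SPT14 (3.34) and TAF14 (2.86).

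Genes that shape the prospore membrane were higher in 22 of 25 cases with 0 lower, with a median of 5.08. SSP1 of the leading edge was at least 68.9-fold and the kinase gene SPS1 at least 68.8-fold higher. Spore wall genes were higher in 25 of 30 cases, also with 0 lower, and had the highest median of the 50 lists, 5.93 (5.45 at the bounds, 6.11 without the sixteenth printed row). LDS1 and SPR2 were at least 64.2-fold and 62.0-fold higher. Septins, the filament proteins that line the growing membrane, divided by subunit. SPR28 and SPR3, made in sporulation, were 20.5-fold and at least 64.9-fold higher. Joining them were 2 vegetative subunits, CDC3 at 16.7-fold and CDC10 at 10.9-fold. CDC11 (0.43) and CDC12 (-0.25) did not move past the rule, and SHS1, the remaining subunit, was not called.

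**Figure D2:**
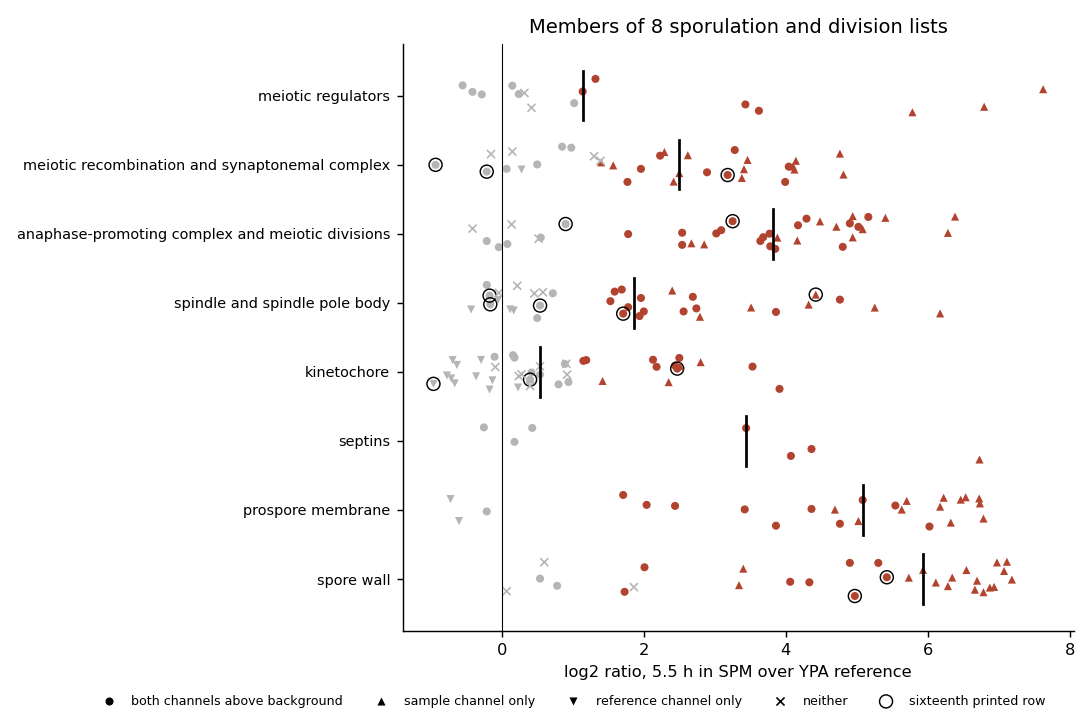
Each marker is 1 gene of the 8 lists named on the vertical axis, from the meiotic regulators to the spore wall, placed by its log2 ratio of SPM 5.5 h over YPA reference. Marker shape shows which channels were above background, red is higher, blue lower and grey not called, the black bar is the list median over genes above background in at least 1 channel, and ringed markers lie in the sixteenth printed row. Medians run up to 5.08 for the prospore membrane and 5.93 for the spore wall, and no marker in these 8 lists is blue.

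Where sporulation uses a relative of a vegetative gene, the forms were called on opposite sides in the GAS, SPS2 and phospholipase B families. GAS2 and GAS4, glucan-elongating enzymes of the spore wall, were at least 53.2-fold and 60.3-fold higher, while GAS5 was 2.59-fold lower and GAS3 had a ratio of 0.16 ± 0.03. SPS2 and SPS22 were at least 67.2-fold and 62.5-fold higher, and their vegetative relatives ECM33 and PST1 were 4.51-fold and at least 4.66-fold lower. SPO20, the t-SNARE subunit that brings vesicles to the prospore membrane, was at least 44.6-fold higher, and SEC9, its counterpart at the plasma membrane, had a ratio of -0.41 ± 0.02. SPR1, the glucanase of spores, was at least 58.0-fold higher, and of its relatives EXG1 had -0.42 ± 0.09 and EXG2 was at least 2.59-fold higher. In glycogen breakdown the sporulation glucoamylase gene SGA1 was at least 45.7-fold higher (26812 and 29666 in SPM cells and 320 and 427 in the reference). GPH1, the glycogen phosphorylase, was compared as an enzyme of the same pathway, not as a relative. It went the other way, at 980 and 1005 in SPM cells and 22596 and 22871 in the reference, at least 14.6-fold lower. The debranching enzyme gene GDB1 had -0.74 ± 0.18. Of the subunits of cytochrome c oxidase that replace each other, COX5B was 8.22-fold higher and COX5A 2.12-fold lower (chosen after its value was seen). Most other families, those of SPO20 and SPR1 among them, did not divide in this way. In the outer plaque of the spindle pole SPC72, the mitotic counterpart of SPO21 and MPC54, was below background in both channels. The spore-specific glucan synthase gene FKS3 was below background too, and GSC2 (0.78 ± 0.19) and FKS1 (-0.04 ± 0.14) had no call. The spore-specific chitin synthase activator gene SHC1 was below background by little, at 1279 and 1242 in SPM cells against a threshold of 1316. Its spots lay at log2 ratios of 1.91 and 1.82, and its relative SKT5 (-0.60 ± 0.23) had no call. In the phospholipase B family, which did divide, SPO1 was 3.27-fold higher, PLB2 was at least 1.29-fold lower and PLB3 had 0.10. Among the COPII cargo genes the condition-specific SFB3 was itself lower, at least 2.56-fold, and its general relative SEC24 (-1.07) had no call. SFB2 was below background in both channels.

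**Figure D3:**
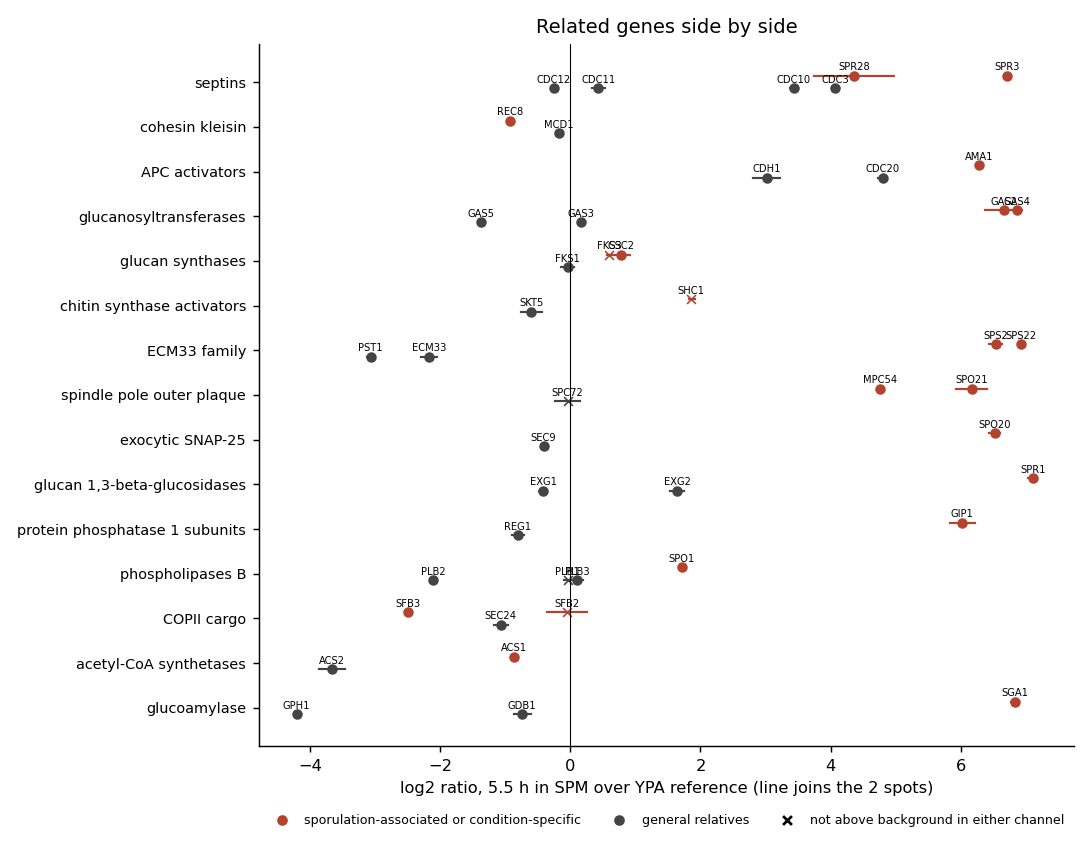
Families of related genes, with the sporulation-associated or condition-specific member in red above its general relatives in dark grey. The glucoamylase row instead sets SGA1 beside other enzymes of glycogen breakdown. Each dot is the mean log2 ratio of SPM 5.5 h over YPA reference, the line joins the 2 spots, and a cross marks a gene below background in both channels. In the GAS and SPS2 families the red members lie above 6, and GAS5, ECM33 and PST1 lie below -1. REC8 lies in the sixteenth printed row.

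The lowest ratios with both channels above background came from several functions. RPS1B, a ribosomal protein gene, ranked here through 1 SPM spot close to background (-24 and 1318 in SPM cells, against 16609 and 16947 in the reference), so no fold is given for it. YRO2, a membrane protein gene, was 14.3-fold lower (1499 and 1476 in SPM cells and 27434 and 26950 in the reference), CAF4, of mitochondrial fission, 14.7-fold and YGP1, a secreted glycoprotein gene, 13.3-fold. MCR1 and ETR1, of mitochondria, were 12.1-fold and 11.3-fold lower. YBL100C, a frame with no RefSeq entry, was 11.5-fold lower. The rest of these 15 belong to the functions below.

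The list with the most lower genes was that of the ribosome. Ribosomal protein genes were lower in 114 of 133 cases, with a median of -2.63 (-2.06 at the bounds), the small subunit at 46 of 55 and the large subunit at 67 of 77. RPS3 had net intensities of 1000 and 959 in SPM cells, below background, and 20746 and 19916 in the reference, at least 13.1-fold lower. RPL13A was at least 6.62-fold lower and RPL2B 11.5-fold. Most ribosomal proteins of yeast are made from a pair of near-identical genes, whose probes can share signal. Of 55 such pairs 40 had both genes lower, 9 had 1 lower gene and a partner without a call, and 2 had no call (RPS27 and RPS28, chosen after their values were seen). The median difference within a pair was 0.50 on the log2 scale, and 13 pairs differed by at least 1. In the remaining 4 pairs the genes stood on opposite sides. RPS21A was at least 6.32-fold higher (4577 and 3421 in SPM cells and 391 and 373 in the reference) and RPS21B at least 3.37-fold lower. RPL15A was at least 2.63-fold higher and RPL15B had -1.19. The other 2, RPL11A (1.55) and RPS9A (1.43), lie in the sixteenth printed row, so that without it 2 of 124 ribosomal protein genes were higher and 108 lower.

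Factors that assemble ribosomes did not follow the ribosomal proteins. Of 140 genes of rRNA processing and ribosome assembly 15 were higher (10.7%) and 19 lower (13.6%), with a median of -0.36. Over all genes the shares were 20.0% and 18.0%. Only 101 of the 140 were above background in at least 1 channel, against 131 of 133 ribosomal protein genes, which limits the calls. RRB1, the chaperone of Rpl3, was at least 5.44-fold lower and the helicase gene MAK5 at least 4.34-fold lower, whereas SQT1, the chaperone of Rpl10, was at least 3.63-fold and CIC1 5.21-fold higher. RNA polymerases I and III had 5 higher and 1 lower of 40, but 19 of the 40 were below background in both channels.

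Translation factors took both directions. Of 42, 6 were higher and 17 lower (median -0.94, or -0.47 at the bounds). The higher ones included TIF11 (eIF1A, 4.27-fold), SUI1 (eIF1, 3.79-fold) and SUI2 (eIF2 alpha, 3.01-fold, or a log2 ratio of 0.73 with loess within print blocks), along with TIF5 (eIF5), which lies in the sixteenth printed row. The lower ones were led by FUN12 (eIF5B, at least 3.93-fold), ANB1 (an eIF5A isoform, 4.34-fold), YEF3 (elongation factor 3, 4.23-fold, or a log2 ratio of -0.99 with loess within print blocks) and RLI1 (recycling, at least 2.80-fold). Cytosolic aminoacyl-tRNA synthetases showed 6 higher and 8 lower of 23. GLN4 (glutamine) was 8.65-fold, FRS2 (phenylalanine) 6.51-fold and TYS1 (tyrosine) at least 3.75-fold higher. GUS1 (glutamate) and GRS1 (glycine) were at least 8.27-fold and 6.56-fold lower. GRS2, the second glycine gene, had a ratio of 2.53 in the sixteenth printed row beside YPR127W (2.97) and SCD6 (1.78).

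**Figure D4:**
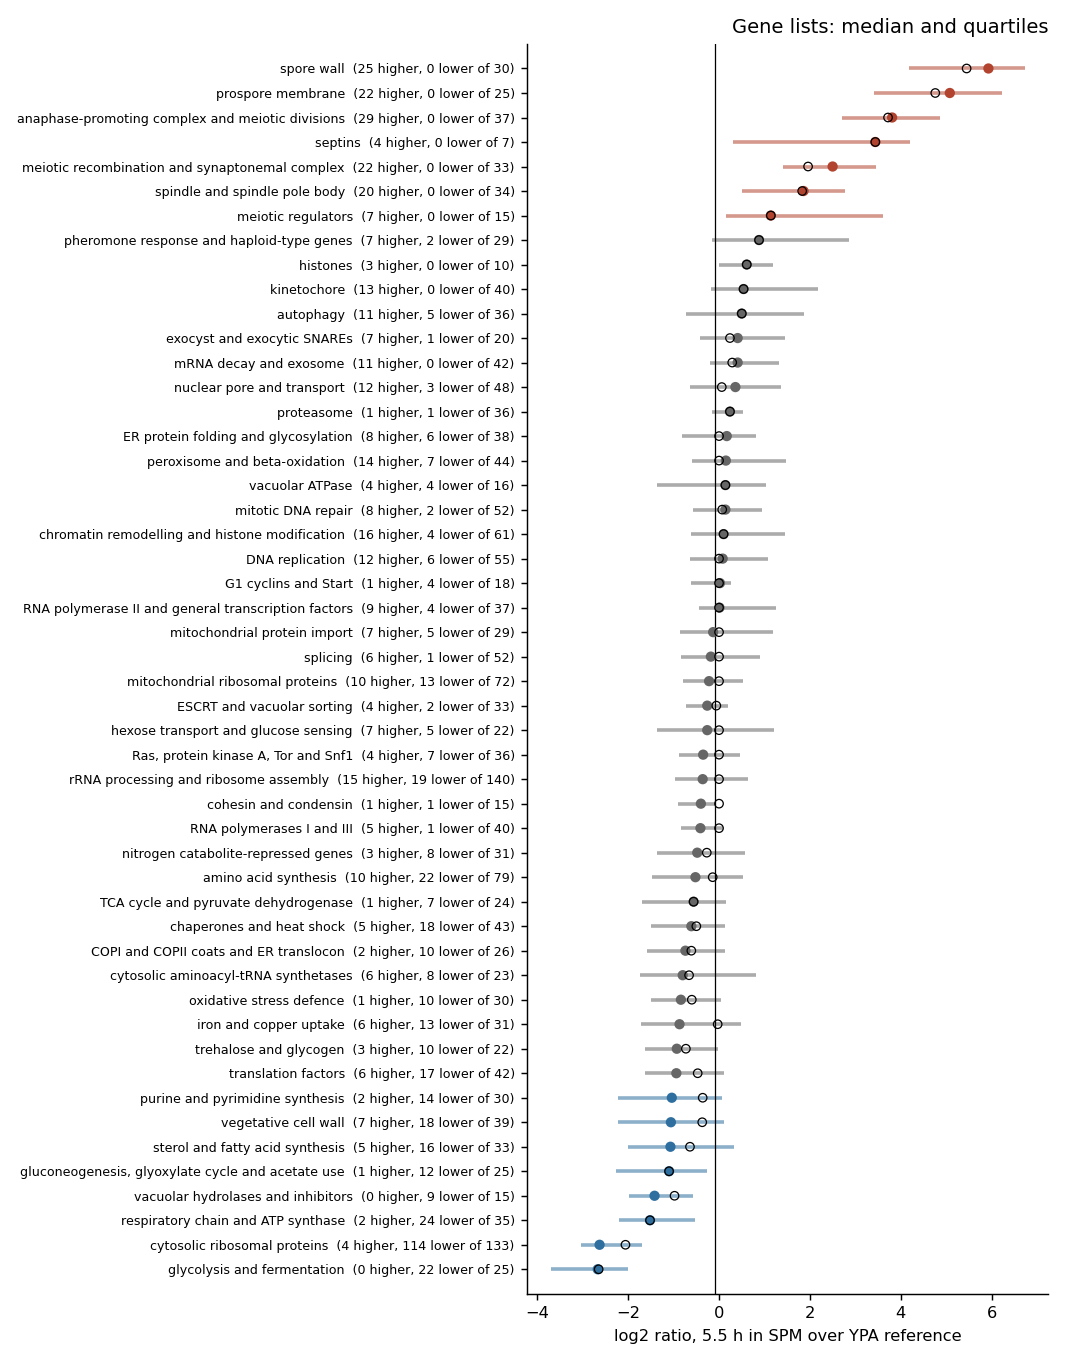
The 50 gene lists ordered by median log2 ratio of SPM 5.5 h over YPA reference, with counts of higher and lower members beside each name. Filled dots are medians over members above background in at least 1 channel, bars run between the quartiles, open circles are medians with 1-channel genes at their bound, and the vertical line is the median of all genes (-0.09). The spore wall list is at the top (5.93) and glycolysis at the bottom (-2.67), next to the ribosomal proteins (-2.63).

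Genes of sugar metabolism were low against a reference that itself grew without sugar. Glycolysis and fermentation had 22 of 25 lower and 0 higher, with a median of -2.67 that the bounds left at -2.65. ENO2, an enolase gene, had 2222 and 1863 in SPM cells and 41050 and 45430 in the reference and was 16.6-fold lower. ENO1 was 14.2-fold, PDC5 and PGK1 13.0-fold each and CDC19 (pyruvate kinase) 11.8-fold lower, and PDC1 (pyruvate decarboxylase) was at least 21.4-fold lower and GPM1 (phosphoglycerate mutase) at least 11.7-fold. PGI1 (phosphoglucose isomerase) was bright in the reference alone, at 860 and 980 in SPM cells and 27821 and 31104 in the reference. Hexose transporters took both directions, with 7 of 22 higher and 5 lower. HXT14 was at least 38.5-fold higher, and HXT11 and HXT9, whose probes can share signal, were 5.08-fold and 3.71-fold higher. HXT4 was at least 7.36-fold lower, HXT6 and HXT7, another near-identical pair, 8.24-fold and 7.26-fold, and HXT3 5.84-fold.

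The acetate-using pathways of the reference were lower in part. Of 25 genes of gluconeogenesis, the glyoxylate cycle and acetate use 12 were lower and 1 was higher (median -1.10). FBP1, the fructose-1,6-bisphosphatase of gluconeogenesis, was bright in the reference alone, with 903 and 1034 in SPM cells and 57301 and 57040 in the reference, and was at least 38.3-fold lower. SFC1, the succinate-fumarate carrier, was 10.6-fold lower, the carnitine acetyltransferase gene YAT1 6.53-fold, and ACS2, an acetyl-CoA synthetase gene, at least 5.97-fold. ACS1, the other synthetase gene, was bright on both sides (16016 and 14834 in SPM cells and 35919 and 34093 in the reference), with -0.87 ± 0.02. PCK1 and ICL1, the first enzymes of gluconeogenesis and of the glyoxylate cycle, had 0.42 and 0.05 (chosen after their values were seen). The higher gene was ADY2, the acetate transporter, at 2.27-fold, which had a log2 ratio of 0.75 and no call with loess within print blocks.

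Respiration genes were mostly lower. The respiratory chain and ATP synthase had 24 of 35 lower and 2 higher with a median of -1.52. ATP synthase contributed 9 lower of 11, cytochrome c oxidase and the bc1 complex 6 of 9 each, and succinate dehydrogenase 2 of 4. ATP16 was 8.34-fold, ATP2 7.21-fold (3873 and 3887 in SPM cells and 35964 and 35536 in the reference) and QCR10 7.03-fold lower. The exceptions were COX5B and QCR9 (4.08-fold higher). The TCA cycle and pyruvate dehydrogenase list was less shifted, with 7 of 24 lower and 1 higher and a median of -0.56. IDP1 was 6.48-fold, SDH1 5.23-fold and SDH3 4.11-fold lower, and PDX1 of the pyruvate dehydrogenase complex was 2.22-fold higher (a log2 ratio of 0.67 with loess within print blocks). FUM1 (fumarase, 6.60-fold lower) lies in the sixteenth printed row. Mitochondrial ribosomal proteins, unlike the cytosolic ones, had a median near that of all genes, with 10 of 72 higher and 13 lower and a median of -0.22 against -0.09. MRPS17 had a log2 ratio of 4.64, MRPL37 was 18.6-fold higher, and PET123 and MRP7 at least 2.79-fold and 2.73-fold lower. In mitochondrial import 7 of 29 were higher (24.1%) and 5 lower (17.2%), against 20.0% and 18.0% of all genes. TIM18 was 22.6-fold, TOM7 7.36-fold and SAM50 6.96-fold higher, while TIM44 was 4.07-fold and SAM35 at least 1.96-fold lower.

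Carbohydrate stores were covered by 22 genes of trehalose and glycogen metabolism, of which 3 were higher and 10 lower (median -0.93). Besides GPH1, TPS2 (trehalose-6-phosphate phosphatase) was at least 21.5-fold lower, GSY2 (the main glycogen synthase) was 11.6-fold and TSL1 of the trehalose synthase complex at least 2.66-fold. PIG2 and PIG1, regulatory subunits that tie Glc7 to glycogen synthase, were 9.88-fold and 2.79-fold higher. Peroxisome and beta-oxidation genes took both directions. Of 44, 14 were higher and 7 lower. The membrane proteins that set peroxisome size, PEX32 and PEX28, were 23.8-fold and 14.4-fold higher, and PIP2, the oleate-responsive activator, 18.9-fold. The acyl-CoA synthetase genes FAA2, FAA3 and FAA4 were at least 4.11-fold, at least 4.17-fold and 4.13-fold lower.

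**Figure D5:**
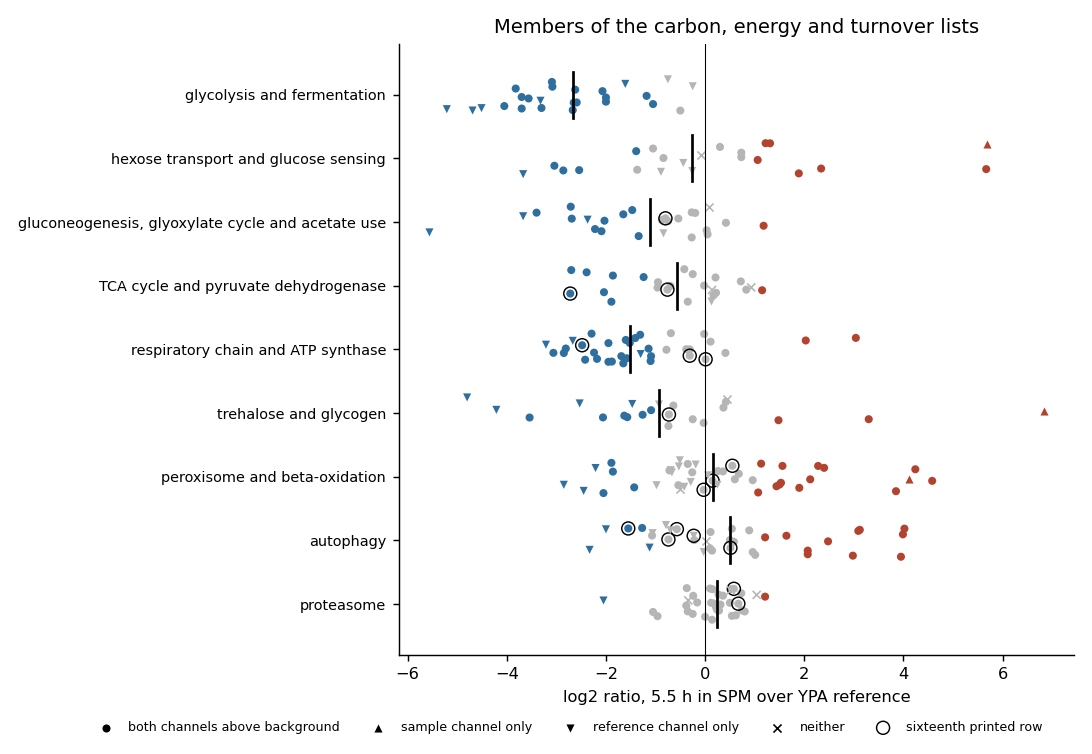
Members of the carbon, energy and turnover lists by log2 ratio of SPM 5.5 h over YPA reference, with the marker shapes, colours, rings and median bars of the plot of the sporulation lists. All but 3 of the glycolysis markers are blue, proteasome markers crowd around a median of 0.24, and the red autophagy markers reach 4.02.

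Synthesis pathways leaned to the lower side. Of 79 amino acid genes 10 were higher and 22 lower (median -0.52), of 30 purine and pyrimidine genes 2 and 14 (median -1.04, or -0.36 at the bounds) and of 33 sterol and fatty acid genes 5 and 16 (median -1.07, or -0.64 at the bounds). SER2, ARO1 and ARO8 were at least 3.83-fold, 3.48-fold and 3.19-fold lower and ILV3 4.96-fold, whereas SER33 of the same serine pathway was 13.4-fold and LEU1 8.65-fold higher. GLN1 stands in the row of like ratios described above. URA1 was at least 14.0-fold lower (868 and 784 in SPM cells and 22914 and 20521 in the reference), ADE13 at least 5.48-fold and ADE3 at least 4.58-fold. FUR1, which salvages uracil, was 7.30-fold higher. Ergosterol enzymes were lower in 12 of 21 cases with 0 higher (median -1.32), led by ERG5 and ERG3 (at least 11.0-fold and 8.51-fold) and HMG1 (at least 5.95-fold). Enzymes that lengthen fatty acids were called on both sides. The elongases ELO3 and ELO2 were higher at log2 ratios of 3.96 and 3.58, and IFA38 and PHS1, which act in the same cycle, were 2.96-fold and 2.39-fold higher (for PHS1, a log2 ratio of 0.79 with loess within print blocks). TSC13, the last enzyme of that cycle, was 3.32-fold lower (chosen after its value was seen). IDI1 (1.57) lies in the sixteenth printed row, where the next 3 genes had 1.56, 1.58 and 1.53.

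Among turnover systems, autophagy and the proteasome differed. Of 36 autophagy genes 11 were higher and 5 lower (median 0.50). ATG8, the ubiquitin-like protein of the autophagosome, had 29567 and 27244 in SPM cells and 2854 and 2329 in the reference and was 15.5-fold higher. ATG3, its conjugating enzyme, was 8.69-fold higher, and the receptor genes ATG40 (endoplasmic reticulum) and ATG32 (mitochondria) 16.3-fold and 15.9-fold. ATG19, the receptor of the biosynthetic Cvt pathway, was at least 4.71-fold and the lipase gene ATG15 at least 1.29-fold lower. Proteasome genes stayed together, with 1 higher and 1 lower of 36 and 0 calls among the 14 genes of the 20S core (median 0.36). The 2 calls were RPN8 (2.32-fold higher, or a log2 ratio of 0.31 with loess within print blocks) and RPN4, the activator of proteasome genes (at least 4.03-fold lower). Vacuolar hydrolases and their inhibitors had 9 of 15 lower and 0 higher. The carboxypeptidase gene CPS1 was at least 5.78-fold lower, and the inhibitor genes PBI2 and TFS1 were 6.48-fold and at least 8.06-fold lower. Vacuolar ATPase genes took both directions (4 higher and 4 lower of 16, or 3 and 3 of 14 without the sixteenth printed row). The Golgi isoform STV1 and VMA21 were 2.55-fold and at least 2.67-fold higher, and the subunit genes VMA2 and VMA1 4.35-fold and 3.93-fold lower.

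Stress genes were more often lower. Of 43 chaperone genes 18 were lower and 5 higher (median -0.61) and of 30 genes of oxidative defence 10 and 1 (median -0.84). BTN2 was at least 17.1-fold, FES1 9.77-fold, HSP78 8.48-fold and HSP42 5.50-fold lower. HSP31 was 8.05-fold and SSA3, a stress-inducible Hsp70, 3.29-fold higher, and HSP32, a near-identical relative of HSP31, had 2.06 in the sixteenth printed row. GRX2 was 4.00-fold, CTA1 3.64-fold and AHP1 3.60-fold lower. The transcription factor gene SKN7 was 3.02-fold higher. In metal uptake 13 of 31 genes were lower and 6 higher, and the median was -0.87 (-0.03 at the bounds). SIT1, a siderophore transporter, was bright in the reference alone (1299 and 1519 in SPM cells and 30437 and 31454 in the reference) and was 17.3-fold lower, and FET3, the multicopper ferroxidase, at least 7.97-fold lower. SMF3, which moves iron out of the vacuole, was 11.2-fold higher, the copper chaperone gene ATX1 7.10-fold and the Golgi copper pump gene CCC2 3.97-fold. Genes under nitrogen catabolite repression, which poor nitrogen sources switch on, did not act as a set, with 3 of 31 higher and 8 lower. DAL4 was at least 6.31-fold, GAP1 3.28-fold and DAL5 2.80-fold higher, and UGA1 at least 8.48-fold, PUT4 at least 4.78-fold and DAL7 at least 3.89-fold lower.

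In the secretory pathway the coat genes were more often lower than those of the late steps. Of 26 genes of the COPI and COPII coats and the translocon 10 were lower and 2 higher (median -0.74). COP1 was at least 4.71-fold, SEC31 4.14-fold and SEC27 3.26-fold lower, whereas SEC12, the exchange factor that starts COPII assembly, was 17.9-fold and SEC72 at least 7.85-fold higher. Exocyst and exocytic SNARE genes had 7 of 20 higher (35.0%) and 1 lower (5.00%), against 20.0% and 18.0% of all genes. Without the sixteenth printed row these were 5 and 1 of 18. The higher ones included SPO20, which is counted with the prospore membrane genes as well. The vesicle SNARE gene SNC2 was 3.28-fold higher with spots at 1.07 and 2.36, and SEC2, an exchange factor, 3.05-fold. The lower gene was SEC1, dim on both sides at 512 and 433 in SPM cells and 1978 and 1718 in the reference. ER folding and glycosylation genes had 8 of 38 higher (21.1%) and 6 lower (15.8%), near the 20.0% and 18.0% of all genes. ALG9 was 8.86-fold and ERO1 4.55-fold higher, and DPM1 2.31-fold lower. In vacuolar sorting 4 of 33 were higher and 2 lower. The vacuolar SNARE genes VAM7 and VAM3 were 7.04-fold and 3.57-fold higher, and VPS29 and VPS27 3.68-fold and 3.04-fold lower. Genes of the vegetative cell wall were lower in 18 of 39 cases and higher in 7 (median -1.06, or -0.37 at the bounds). PIR1 and HSP150 were 8.77-fold and 8.46-fold lower and the mannoprotein gene TIP1 at least 4.68-fold. UTH1 was 9.39-fold, EGT2 6.13-fold and CWP1, also a member of the prospore membrane list, 4.10-fold higher.

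The genes of nutrient signalling showed 4 higher (11.1%) and 7 lower (19.4%) of 36, against 20.0% and 18.0% of all genes. The enzymes that break down cyclic AMP, PDE1 and PDE2, were 5.34-fold and 3.35-fold higher. GPA2, the G protein of glucose sensing, was 6.11-fold lower, RAS2 and its partner of adenylate cyclase SRV2 at least 3.12-fold and 4.82-fold, and TOR1 at least 4.15-fold. TAP42 was at least 2.62-fold and GAL83, a beta subunit of the Snf1 kinase, 5.06-fold higher. Haploid-type genes, which are kept silent in a/alpha diploids, served as markers of cells that are not such diploids. Of 11 such markers 4 were called higher, 5 (STE2, MFA1, MFA2, GPA1 and RME1) were below background in both channels, and HO (0.88 ± 0.35) and FUS1 (0.46 ± 0.02) were not called. STE18, the G gamma subunit, had 20467 and 18493 in SPM cells and 1142 and 1363 in the reference and was 23.3-fold higher. STE4, its beta partner, was at least 9.06-fold, the scaffold gene STE5 at least 4.29-fold and the a-factor receptor gene STE3 at least 3.52-fold higher. Of the whole list of 29 mating genes 7 were higher (24.1%, against 20.0% of all genes) and 2 lower (6.90%, against 18.0%). The part of other cells in this was not tested.

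Nuclear and RNA-level genes had medians closer to that of the whole array. Their shares stand against 20.0% higher and 18.0% lower over all genes. In mRNA decay 11 of 42 genes were higher (26.2%) and 0 lower (median 0.41). The higher ones included EDC2 (4.98-fold), LSM7 (4.20-fold) and CDC36 (3.99-fold). Splicing had 6 of 52 higher (11.5%) and 1 lower (1.92%). PRP9 was 4.64-fold higher and PRP19, the ubiquitin ligase of the spliceosome, 4.75-fold lower. Nuclear pore and transport genes had 12 of 48 higher and 3 lower, with GLE2 4.73-fold higher and the exportin gene CRM1 2.19-fold lower (a log2 ratio of -0.78 with loess within print blocks). RNA polymerase II and its general factors had 9 of 37 higher (24.3%) and 4 lower (10.8%), or 7 and 2 of 32 without the sixteenth printed row. SPT15, the TATA-binding protein, was 4.53-fold higher and the helicase gene SSL2 at least 2.21-fold lower. In chromatin 16 of 61 were higher (26.2%) and 4 lower (6.56%). SNF2 was 13.6-fold and RSC58 at least 6.57-fold higher, while INO80, the ATPase of another remodeller, was at least 8.80-fold lower (983 and 1061 in SPM cells and 12808 and 14871 in the reference). The sirtuin genes differed, since HST1, HST3 (3.68-fold, chosen after its value was seen) and HST4 (at least 8.78-fold) were higher, HST2 was at least 1.85-fold lower and SIR2 had spots at -1.92 and -1.63, called lower with no fold to give.

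The later arrays place some of these lists in time. They share the reference RNA with the SPM array, and no difference between arrays was tested. List medians are given in the order 5.5 h in SPM, then 0, 20 and 40 min in YPD. Ribosomal proteins had -2.63, -0.21, 1.40 and 1.82, and rRNA processing had -0.36, 0.81, 1.72 and 1.74. Recombination genes had 2.50, 1.51, 0.42 and 0.05. Spore wall genes stayed high at 5.93, 6.52, 5.62 and 5.06, as did the prospore membrane list at 5.08, 4.95, 4.02 and 3.16. Glycolysis had -2.67, -2.79, -3.34 and -1.67. Proteasome genes had 0.24, -0.41, -0.92 and -1.37. The lists lowest at 5.5 h thus stood apart at 40 min, with the ribosomal proteins above the reference and glycolysis below it.

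Functions known to the lists covered part of the response. The 50 lists hold 1871 genes (30.1% of the array), 382 of the higher (30.7%) and 451 of the lower genes (40.2%). Among the 555 open reading frames with no RefSeq entry 88 were higher (15.9%) and 78 lower (14.1%). Probes were double-stranded PCR products, so transcripts of opposite strands cannot be told apart, and many of these frames lie across a named gene. A partner here is a RefSeq gene on the opposite strand whose systematic number is the same or the next one. Of the 68 higher frames with such a partner 41 (60.3%) had one that was higher, against 27.3% of all 433 frames with a partner, and of the 58 lower frames 28 (48.3%) had a lower one, against 21.9%. Calls were also set beside those of genome neighbours. For divergent pairs, in which 2 genes start back to back, 30.0% of 607 higher genes had a higher partner. The share was 26.0% in convergent and 25.3% in tandem pairs. Of all protein-coding RefSeq genes on the array, in whatever arrangement, 20.4% were higher. For lower genes the shares were 21.9% in divergent, 19.9% in convergent and 24.1% in tandem pairs, against 18.5% of all protein-coding RefSeq genes.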

How the data were processed

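Total RNA was primed with oligo(dT), labelled through amino-allyl nucleotides and hybridised by the authors to glass arrays of PCR products, each gene in 2 adjacent spots. Images were quantified in QuantArray (version 3), and the deposited intensity of each spot and of its background, in either channel, had been neither subtracted nor normalized. A second deposited table gives the authors' log2 ratios, made by background subtraction, a floor at the mean of the buffer spots, median centring and averaging of duplicate spots (column median 0.00), and served as an alternative. Cy5 was taken as sample and Cy3 as reference from the dye fields, checklist and scanner headers, although the labelling text has the opposite dye order. The study's steps, repeated on the intensities, correlated with the table at r = 0.996 across 5510 matched genes, which are not replicates. No dye swap was made, so probe-specific dye effects remain.

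Intensities were corrected with normexp (offset 50) and normalized by array-wide loess in limma 3.58.1 (R 4.3.3), with 236 buffer and 384 Arabidopsis control spots at weight 0, and tables were made in Python 3.11.15 with numpy 2.4.6 and pandas 2.3.3. The procedure was tested on simulated data with few changed genes, as many up as down, and scored on bright genes only. On the real array many genes were called and the higher ones reached further. How the normalization behaves under such a shift was not tested. Bounds set the brighter channel's normalized level against the higher of the dimmer channel's own value and the lowest value above background, and are open to dye bias. Background was set by buffer spots, which in Cy5 reached 1316 at the 95th percentile, against 311 for Arabidopsis spots. With 1 array there was no test, and the number of arrays limits the precision. Sources used here do not give the genome build of the array, and RefSeq R64 served for names and neighbours only.

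Members, the 50 lists and the naming rule were chosen with earlier results of these data known. Named were the 15 largest ratios in each direction among called genes above background in both channels, up to 4 called members per list and direction, every member called against the direction of most of its list where these were 5 or fewer, and all members of the regulator list and of the related-gene families. Results of 3 genes are not reported here. Alternatives were other scalings (array median, loess within print blocks, the study's steps, offsets of 0 and 200, the value table), single spots, other background rules, 3-fold calls and, added after the data were seen, leaving out the sixteenth printed row.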

Additional observations from a re-analysis of the deposited data

Results flagged for a closer look

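Directions that opposed each other between the SPM array and the last YPD array, each against the same reference RNA, were looked for among the lists with medians of at least 1 in size and among the named genes above background in both channels. The median of the ribosomal protein list was -2.63 at 5.5 h in SPM and 1.82 at 40 min in YPD. AHP1, a thiol peroxidase gene, had -1.85 at 5.5 h in SPM and 1.19 at 40 min in YPD. VPS29, a retromer subunit gene, had -1.88 at 5.5 h in SPM and 1.43 at 40 min in YPD. For AHP1 and VPS29 both spots passed 2-fold on each array. The differences were not tested, since each time had 1 array.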

How the results depend on the processing

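Over the 6 alternative scalings, offsets and the authors' value table, the number of higher genes ran between 1137 (the study's steps) and 1254 (offset 0) against 1244, and that of lower genes between 998 (offset 200) and 1188 (array median) against 1121. The share of calls that were higher was 49.8% to 54.7%, against 52.6%. Requiring both channels above background left 473 lower genes and 879 higher, 65.0% of calls higher, and 3-fold calls left 641 lower and 873 higher genes. With the bound in place of the measured ratio 787 genes were lower and 1239 higher, 61.2% of calls. With the Arabidopsis spots as background 1124 genes were lower and 1351 higher. The all-gene median of -0.09 became -0.21 with the study's steps and 0.31 with both channels required. With both channels required 5 list medians changed sign, rRNA processing (-0.36 to 0.67), hexose transport (-0.26 to 0.51), mitochondrial ribosomal proteins (-0.22 to 0.35), metal uptake (-0.87 to 0.11) and splicing (-0.18 to 0.65), since genes seen in the reference alone drop out. Without the sixteenth printed row 18 of 50 list medians were at least 1 in size, against 15. With loess within print blocks 190 of 372 named ratios moved by more than the noise between spots. With the study's steps 96 moved, and 91 of 369 did in the value table. Of 343 called genes among those named, 19 were under 2-fold with loess within print blocks, where GLN1 turned to -0.42 and RPL11A to -0.15. Others were TIF5 (0.04), IDI1 (0.16), RPN8 (0.31), CDC37 (0.45), PDX1 (0.67), UME6 (0.69), SUI2 (0.73), SWI4 (0.73), ADY2 (0.75), PHS1 (0.79), VMA11 (0.76), VMA7 (0.82), CCL1 (-0.56), CRM1 (-0.78), ATG41 (-0.81), SUA7 (-0.81) and YEF3 (-0.99). The cause was not tested. No paired analysis was possible because each group had 1 array. Dim signal limits the lower calls most, since 648 of 1121 had no SPM signal above background.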
